A study of Mus musculus with 10 samples.

Results

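The stretches of mouse chromosomes 1 to 19 described here carried called H3K27me3 in every stimulated macrophage library and in neither unstimulated one. The autosomes were cut into 1 kb bins, and calling a bin took 500 bp or more under the merged H3K27me3 regions of a library. A bin is a member when it was called in all 8 stimulated libraries and in neither of the 2 unstimulated libraries. There were 15348 member bins among 372982 bins called in at least 1 library, or 4.11%. The opposite pattern, called in both unstimulated libraries and in no stimulated one, held for 2656 bins, or 0.712%, and 89232 bins were called in all 10 libraries. The members were chosen by these measured calls in all 10 libraries. The call in the stimulated libraries and the missing call in the unstimulated ones are therefore a description and were not tested. A missing call is not absence of the mark.

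The libraries came from bone marrow-derived macrophages of C57BL/6 mice, grown for 7 days in M-CSF at 20 ng/ml, the growth factor that drives marrow progenitors to macrophages. M0 cells received nothing further, M1 cells received LPS at 20 ng/ml together with interferon-gamma at 50 ng/ml for 24 h, and M2 cells received 20 ng/ml IL-4 for 24 h. In every group Eif2ak3 was floxed, a gene whose product is PERK, a kinase of the stress response. Those called WT (Eif2ak3 fl/fl) carried the floxed alleles alone, and those called KO (Eif2ak3 fl/fl x LysMcre) also carried Cre driven from the lysozyme M locus, so deletion is limited to the myeloid lineage; the deletion itself was not tested here. Each genotype gave 1 library in M0, 2 in M1 and 2 in M2. The M1 and M2 replicates are described as biological, whereas M0 has no replicate within a genotype. The libraries are bulk, so fewer cells with the mark and less mark per cell cannot be told apart.

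H3K27me3 is the trimethylation of lysine 27 on histone H3 that is written by Polycomb repressive complex 2. It is typically deposited at CpG-rich promoters of silent developmental and lineage genes and spreads from there over broad domains. In macrophages the genes of other lineages lie in such domains, while genes in use are free of them.

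Several properties of the libraries move with the split that defines the members. The M0 libraries held 12.6 (WT) and 14.5 megatags (KO), against 14.2 to 20.9 megatags in the stimulated ones. Their estimated fragment length was 352 and 372 bp, against 178 to 190 bp after stimulation. The tag count a 1 kb window needed to be called, scaled to 10 megatags, was 15.9 in WT M0 and 14.5 in KO M0. It was 12.9 to 13.7 in 7 stimulated libraries and 14.8 in KO M2 replicate 2. The share of tags that lay in called regions was 62.6% in WT M0 and 64.1% in KO M0, against 41.3% to 61.3% after stimulation. These differences cannot be told apart from stimulation, since they lie along the same split of the libraries. Each M0 genotype is also only 1 library. Separately, WT M1 replicate 1 and WT M2 replicate 1 stood apart on the X chromosome, where they called 54.2% and 91.6% of the X bins called in any library, against 1.19% to 1.73% in the other 8 libraries. The X chromosome is outside the bins used here, and 20366 bins met the rule without those 2 libraries, an alternative chosen after seeing the data. Of the 10 macrophage markers, which include Csf1r, Adgre1 and Spi1, 0 had at least 50% of the gene body under regions in any stimulated library and at most 1 had in an M0 library. Between 1 and 3 of 5 B cell markers, 1 and 2 of 5 T cell, 4 granulocyte and 4 stromal markers, and 0 and 1 of 2 erythroid markers were covered in a library.

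Few member bins contain a gene start, and the sequences before these starts were examined. Of 20085 RefSeq starts listed for 18 autosomes (GRCm38.p6, the build called mm10), 49 starts of 48 genes lay in member bins. The 250 bases before each of the 4 starts that sit in the longest unbroken runs of member bins are printed first. They are followed by the same window of Cald1, Pgm5 and Unc13b, genes with many member bins whose own starts lie in bins called in all 10 libraries. These 3 were chosen after the values were seen. Each line runs 5′ to 3′ along the gene, from RefSeq, with CpG dinucleotides in capitals.
Defb42 (chr14:63046741-63046990, plus strand): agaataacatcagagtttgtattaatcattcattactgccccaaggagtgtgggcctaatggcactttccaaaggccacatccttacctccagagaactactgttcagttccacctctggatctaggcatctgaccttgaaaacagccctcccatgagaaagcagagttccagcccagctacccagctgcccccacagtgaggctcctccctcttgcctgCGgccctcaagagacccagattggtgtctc
9330182O14Rik (chr15:40134115-40134364, plus strand): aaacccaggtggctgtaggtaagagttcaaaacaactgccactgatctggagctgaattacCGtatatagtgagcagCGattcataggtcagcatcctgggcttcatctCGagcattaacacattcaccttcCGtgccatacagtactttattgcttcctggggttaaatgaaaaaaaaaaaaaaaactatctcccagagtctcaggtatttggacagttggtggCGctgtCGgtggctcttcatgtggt
Tex37 (chr6:70918923-70919172, minus strand): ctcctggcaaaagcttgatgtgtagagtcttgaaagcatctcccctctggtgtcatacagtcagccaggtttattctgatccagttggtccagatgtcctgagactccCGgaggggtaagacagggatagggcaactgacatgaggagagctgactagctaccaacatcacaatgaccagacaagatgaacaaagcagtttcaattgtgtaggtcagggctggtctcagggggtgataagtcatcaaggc
Nepn (chr10:52391358-52391607, plus strand): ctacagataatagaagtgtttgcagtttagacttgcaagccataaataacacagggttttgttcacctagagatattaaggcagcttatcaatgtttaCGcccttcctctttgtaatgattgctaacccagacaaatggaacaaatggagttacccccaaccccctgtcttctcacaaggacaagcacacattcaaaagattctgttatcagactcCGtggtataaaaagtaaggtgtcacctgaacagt
Cald1 (chr6:34598254-34598503, plus strand): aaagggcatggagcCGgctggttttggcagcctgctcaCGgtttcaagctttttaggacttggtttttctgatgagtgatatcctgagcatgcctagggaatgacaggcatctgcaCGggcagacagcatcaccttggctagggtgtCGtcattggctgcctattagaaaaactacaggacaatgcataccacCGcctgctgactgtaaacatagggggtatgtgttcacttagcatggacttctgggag
Pgm5 (chr19:24861843-24862092, minus strand): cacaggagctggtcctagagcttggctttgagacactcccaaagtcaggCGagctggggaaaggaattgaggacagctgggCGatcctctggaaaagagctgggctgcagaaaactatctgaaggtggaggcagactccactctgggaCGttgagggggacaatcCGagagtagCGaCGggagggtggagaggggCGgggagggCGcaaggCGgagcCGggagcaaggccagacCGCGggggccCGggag
Unc13b (chr4:43058703-43058952, plus strand): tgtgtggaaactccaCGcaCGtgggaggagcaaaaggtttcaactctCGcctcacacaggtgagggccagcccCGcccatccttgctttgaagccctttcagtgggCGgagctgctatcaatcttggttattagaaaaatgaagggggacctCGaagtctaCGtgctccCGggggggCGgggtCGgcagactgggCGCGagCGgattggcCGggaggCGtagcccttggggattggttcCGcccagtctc
Defb42, a beta-defensin gene, has 1 CpG in its window, Tex37, a testis-expressed gene, has 1, Nepn, a small leucine-rich proteoglycan gene, has 2, and 9330182O14Rik has 6. By contrast the windows of Pgm5 and Unc13b hold 13 and 16 CpGs, and that of Cald1 holds 5.

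The other starts in member bins were also poor in CpG. The median over the 49 windows was 2 CpGs, 46.4% GC and an observed/expected CpG ratio of 0.147. In the 3573 starts within bins called in all 10 libraries these medians were 13 CpGs, 61.2% GC and 0.582. With CpG-rich meaning at least 50% GC and a ratio of at least 0.6, 0 of 49 member starts were CpG-rich, against 46.0% of starts in bins called in all 10 libraries, 24.6% of starts in the remaining called bins, 57.5% of those in bins called in M0 alone and 42.7% of all starts. In those remaining called bins the median window held 5 CpGs at a ratio of 0.338. The 48 genes, named here after their values were seen, include 6 olfactory receptor genes, the cytokine genes Il9, Ifna11, Il1f5 and Il1f10, the epidermal genes Lor and S100a7a, and Cyp2e1, a liver cytochrome P450. The STAT motif TTCNNNGAA, searched on both strands, was in 3 of the 49 windows (6.12%) against 6.66% of all windows. The STAT6-type form, with a spacer longer by 1 base, was in 6 (12.2%) against 5.44%, and GAGGAAGT, a PU.1-type motif, was in 0 against 2.26%.

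**Figure D1:**
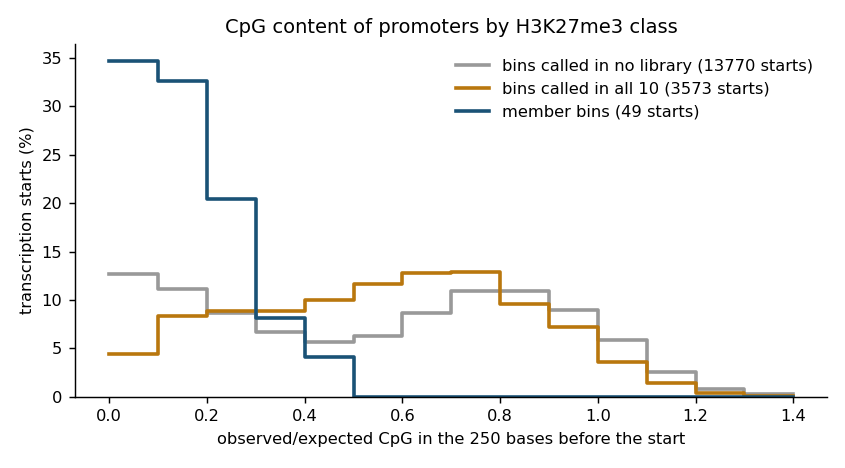
Share of transcription starts (y axis, percent) by the observed/expected CpG ratio of the 250 bases before the start (x axis), for starts in member bins, in bins called in all 10 libraries and in bins called in none. All 49 member starts lie below a ratio of 0.5, while the starts in bins called in all 10 libraries reach beyond 1.

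Gene starts were also rare in the member bins. They held 3.28 starts per 1000 bins, against 41.0 in bins called in all 10 libraries, 74.6 in bins called in M0 alone and 8.47 over all autosomal bins. Bins called in 1 to 7 stimulated libraries and in no M0 library, the pool next to the members, held 3.55. The median member lay 31.1 kb from the nearest listed start, against 21.3 kb for bins called in all 10 libraries and 91.3 kb for all autosomal bins. Gene bodies held 33.8% of member bins, 50.2% of bins called in all 10 libraries and 40% of all autosomal bins. In the pool called in 1 to 7 stimulated libraries and no M0 library, 33.4% of bins lay in gene bodies. Their median distance to a start was 46.6 kb. The members lay nearer to starts than the average autosomal bin, yet fewer of them contained one, and their share in gene bodies was below that of the whole autosomes. The low rate of starts and the low share in gene bodies were shared with that pool.

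Along the chromosomes the members were mostly short pieces near regions called in M0. They formed 8692 unbroken runs with a median length of 1 kb, and 7167 runs (82.5%) were 1 or 2 kb long. Only 261 runs reached 5 kb, and these held 9.92% of the member length. The median distance from a member bin to the nearest region of either M0 library was 279.5 bp, and 86.7% of members lay within 2.5 kb, the gap across which the authors joined windows. A run was classed as beside 1 M0 region in 5027 cases, holding 66.5% of the member length. It was classed as between 2 M0 regions, each within 2.5 kb, in 2733 cases, holding 24.5%. A run of 1 kb that an M0 region touched was put in the latter class even when only 1 side was near M0. The count of 2733 is therefore an upper limit and that of 5027 a lower limit. The remaining runs were farther than 2.5 kb from M0 cover, 675 of them within 10 kb and 257 beyond. The sorting of runs into these classes was chosen after the data were seen.

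Nearness to M0 regions grew with the number of stimulated libraries that called a bin. Bins called in 1 stimulated library and no M0 library had a median distance of 5137 bp, and 36.2% lay within 2.5 kb. At 4 libraries the median was 1746 bp and at 7 libraries 695 bp. The wider regions of the stimulated libraries held the members: 5029 to 6400 regions per stimulated library contained at least 1 member bin, and 81.8% to 90.2% of these also overlapped an M0 region. The distance depended on how a bin was called, with a median of 58 bp when 750 bp of cover were needed and 536 bp when 250 bp were.

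**Figure D2:**
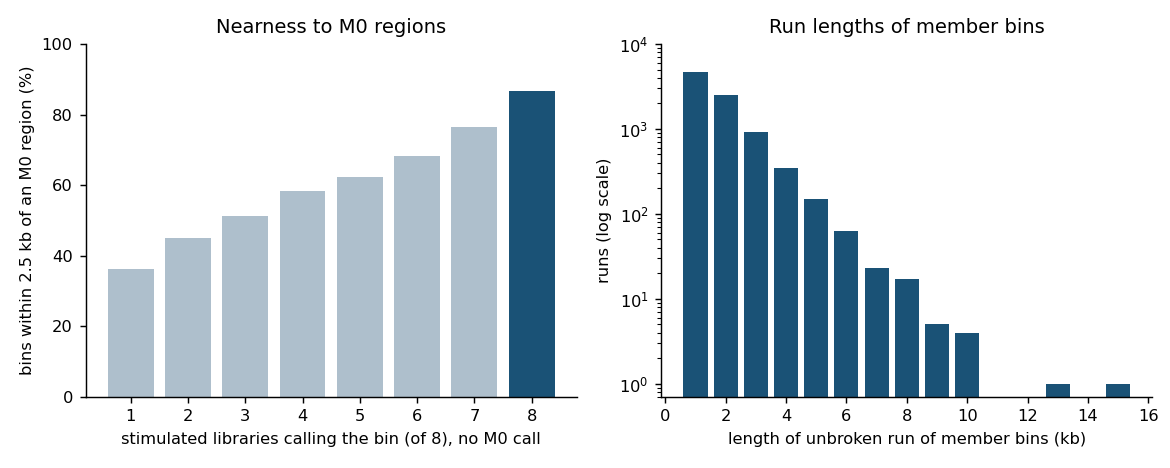
Left, share of bins within 2.5 kb of an M0 region (percent) by the number of stimulated libraries that called the bin, with member bins as the dark bar at 8 (86.7%). Right, number of unbroken runs of member bins (log axis) by length in kb, falling from 4650 runs of 1 kb to 1 run of 15 kb.

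The regions that held members ranked below those holding bins called in all 10 libraries, both by the authors' tag density and by width. The deposited signal is a tag count scaled to 10 megatags, and in the region holding a median member it came to 16 to 20 tags per kb across the 8 stimulated libraries. Within the library's own list this region stood between percentiles 69.1 and 86.4 by density and between 87.4 and 94.5 by width. A wide region counts once for each bin it holds, which raises these percentiles. They were not computed over all called bins. The density is that of the whole region and not of the member bin. In the same 8 libraries the regions holding bins called in all 10 stood between percentiles 91.3 and 93.5 by density. By width they stood between 94.7 and 97.5. Their median density was 20.4 to 33.9 tags per kb there, against 38.5 in WT M0 and 38.3 in KO M0. The median region of a whole list had 19.4 tags per kb in WT M0 and 18.5 in KO M0, against 13.6 to 16.7 after stimulation. These differences too cannot be told apart from stimulation. By the authors' score, the members' regions stood between percentiles 54.9 and 65.4. Keeping the upper 50% of each stimulated list left 432 members when regions were ranked by that score and 8079 when ranked by tags per kb. When the stimulated lists were shortened to the covered length of WT M0, 1049 members remained by score and 6398 by tags per kb. The ranking by tags per kb was added after the data were seen.

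Members near the 500 bp cover threshold were few. In 648 members (4.22%) the stimulated library with the least cover was less than 50 bp above the 500 bp needed, and 745 further bins missed the rule by up to 50 bp. In M0, 662 members (4.31%) stayed up to 50 bp below the 500 bp limit, and 655 bins were outside the rule by less than 50 bp. M0 regions did not touch 10021 members (65.3%) at all, and 10338 members (67.4%) were fully covered in all 8 stimulated libraries. Of the 117522 bins called in all 8 stimulated libraries, 75.9% were called in both M0 libraries, 4.60% in WT M0 alone, 6.41% in KO M0 alone, and 13.1% in neither. KO M2 replicate 2 was the library most often lacking: it alone missed 7233 (50.7%) of the 14277 bins called in 7 stimulated libraries and no M0 library, and without it 22581 bins met the rule.

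The longest run, 15 kb at chromosome 9, 123322001 to 123337000, lay 29927 bp from Lars2, a mitochondrial leucyl-tRNA synthetase gene whose own body had 1.04% cover in each stimulated library. The second, of 13 kb at chromosome 6, 34556001 to 34569000, lay 29495 bp from Cald1. There were 4 runs of 10 kb. Of these, 1 overlapped the left end of the Pdcl2 body (chromosome 5, 76309001 to 76319000), 1 lay within Cecr2, a chromatin remodelling gene, and the others were 22218 bp from Wipf3 and 48131 bp from Hoxc13, a homeobox gene. All 6 longest runs lay within 2.5 kb of an M0 region on 1 side. The share of called bins that were members ran from 2.90% on chromosome 10 to 5.81% on chromosome 14.

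Of 20665 protein-coding autosomal genes, 1344 (6.5%) held at least 1 member bin, 313 held at least 5 and 115 at least 10. Nearly all of them carried the mark elsewhere in every library: 1213 of the 1344 (90.3%) also held a bin called in all 10 libraries, against 24.8% of all genes. Long genes held members more often, from 1.51% of genes up to 10 kb to 25.5% of genes over 300 kb. The contrast of 90.3% with 24.8% was not matched for gene length. The 15 genes with the most member length all held bins called in all 10 libraries. Of these, 11 have listed starts, and their 15 starts all lay in such bins, none in a member. Over the 313 genes with at least 5 member kb, 180 of the 240 with a listed start (75%) began in a bin called in all 10 libraries, against 77.5% of genes with such a bin and no member, and 18.3% of all genes.

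Skap1 held the most, 63 kb of members in a body of 295 kb (chromosome 11, 96464570 to 96759622). It encodes an adaptor of T-cell receptor signalling. Called regions covered 49.6% of it in WT M0 and 53.5% in KO M0. In M1 the cover was 93.2% and 98.6% in the WT replicates and 95.9% and 97.2% in the KO replicates. In M2 it was 87.0% and 95.9% in WT and 95.9% and 85.0% in KO. The M0 regions of Skap1 were a row of separate blocks of varied length along most of the body, and the 63 member bins lay in the gaps between them.

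Other top genes included muscle and motor protein genes. Cald1, the actin-binding caldesmon gene (chromosome 6, 34598495 to 34775469), held 42 kb. Its cover was 18.5% in WT M0 and 22.1% in KO M0, and 54.3% to 71.7% in the stimulated libraries. Pgm5, a phosphoglucomutase-like gene of adhesive junctions (chromosome 19, 24678261 to 24861842), also held 42 kb, with 22.9% and 20.3% cover in M0 against 53.0% to 76.7% after stimulation. Fhod3, a formin of heart muscle, held 27 kb, and the motor genes Myo3b, Dnah14 and Myo16 held 36 kb, 35 kb and 29 kb. The stimulated and M0 values of these genes do not overlap, as the choice by member length would bring about.

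The remaining top genes have varied roles. Unc13b, which primes synaptic vesicles, held 38 kb, with 14.1% and 16.5% cover in M0 and 46.9% to 74.3% after stimulation. Adra1a, the alpha-1A adrenergic receptor gene, held 35 kb, the potassium channel partner Kcnip1 held 29 kb and the acid-sensing channel gene Asic2 held 25 kb. Asic2 is 1088 kb long, and its cover stayed low, from 2.97% in WT M0 to at most 13.7% in WT M1 replicate 1. Cpeb1, which binds polyadenylation elements of mRNAs, held 36 kb, Mast4, a kinase gene, 28 kb, Arhgap26 29 kb, and Aldh1a2, a retinoic acid synthesis gene, 26 kb.

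By share of the body a different set of mostly short genes led. Pdcl2, a phosducin-like gene of male germ cells (chromosome 5, 76312116 to 76331156), had 68.3% of its 19.0 kb in members, with cover of 19.7% in WT M0, 20.8% in KO M0 and 100% in all 8 stimulated libraries. Clrn2, a clarin gene of the inner ear, had 57.7% in members. The others were the potassium channel gene Kcna10 (47.7%), the zinc finger gene Zfp660 (45.8%), Keg1 of the kidney (45.6%), the connexin gene Gjc3 (41.3%), the cytochrome gene Cyp3a13 (39.8%), the nicotinic receptor gene Chrna5 (39.2%), Tmco5 (36.2%) and the muscle gene Klhl31 (34.2%). Tmco5 had no called region in either M0 library and 40.4% to 100% cover after stimulation.

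**Figure D3:**
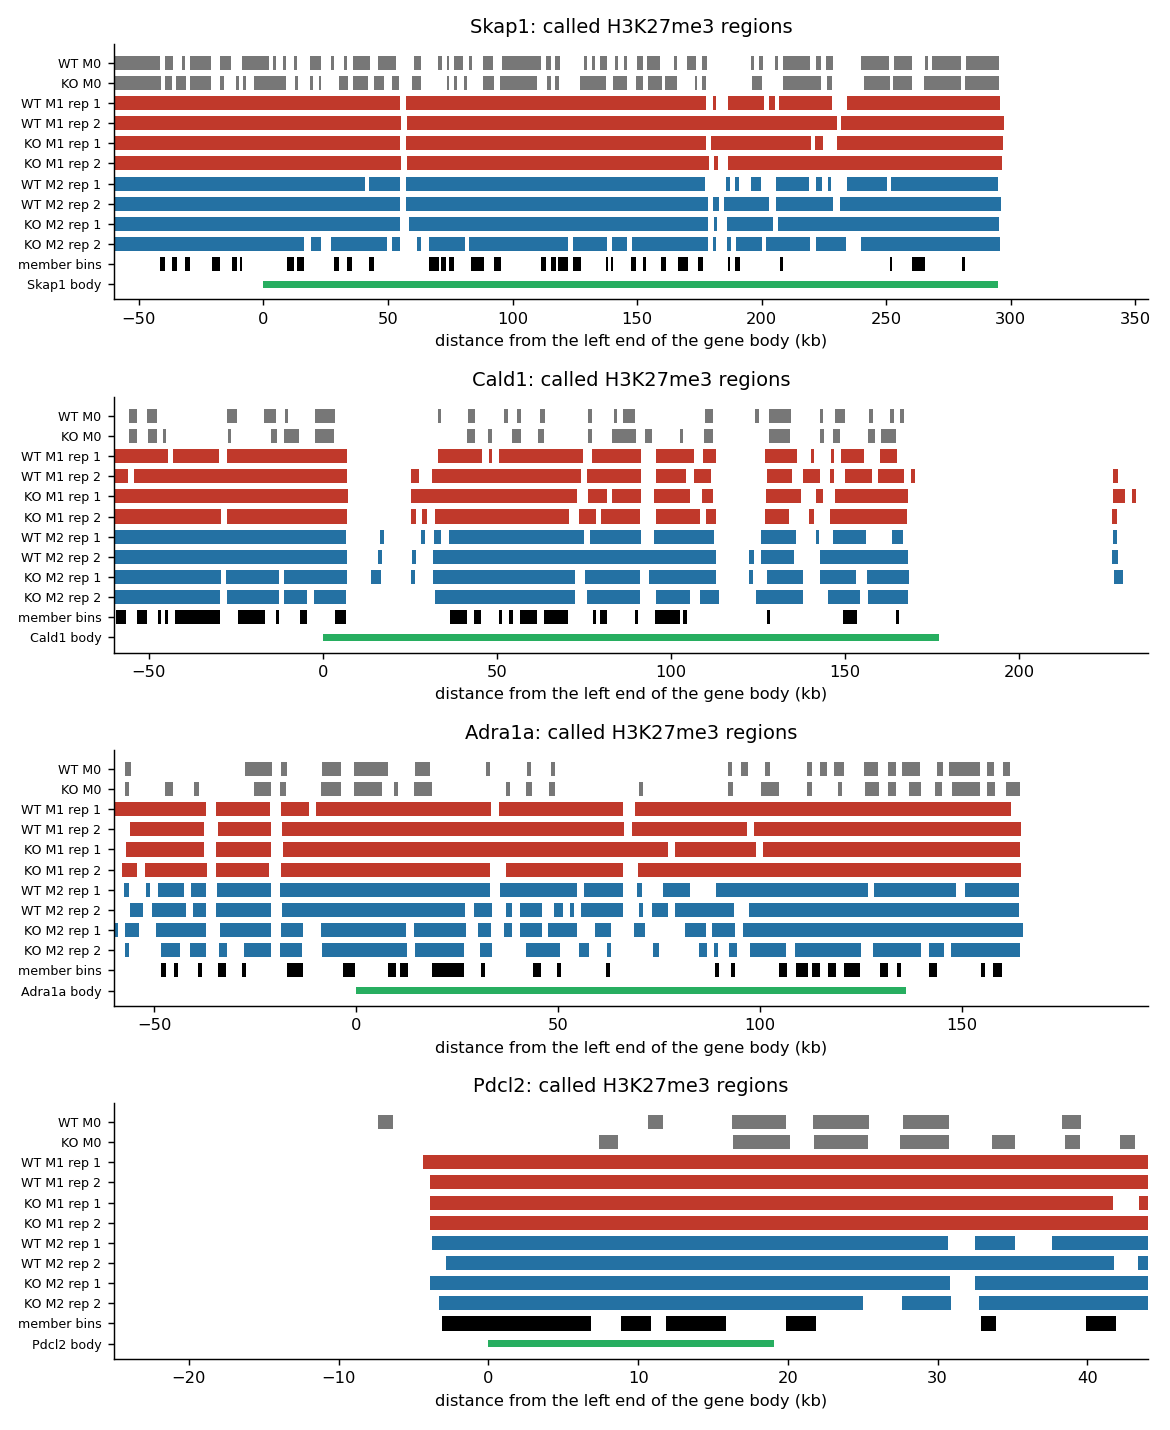
Called H3K27me3 regions of each library (grey M0, red M1, blue M2), member bins (black) and the gene body (green) around Skap1, Cald1, Adra1a and Pdcl2, by distance in kb from the left end of the gene body. In the M0 libraries the regions are separate blocks of varied length, in the stimulated ones they are mostly longer, and the member bins lie between or beside the M0 blocks.

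**Figure D4:**
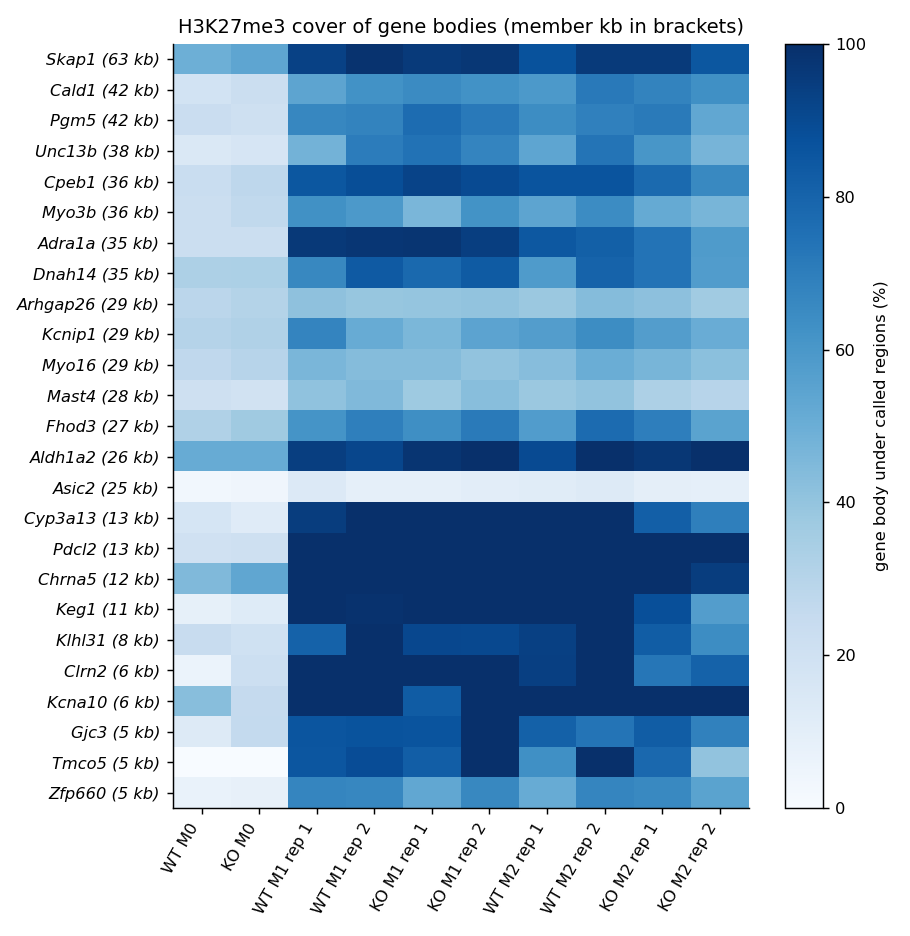
Share of the gene body under called regions (colour, percent) in each of the 10 libraries, for the 15 genes with the most member kb and the 10 with the largest share of the body in members. The columns of the 2 M0 libraries are paler for every gene shown, from 0% in Tmco5 to 53.5% in KO M0 at Skap1. The choice of genes by their members would bring this about.

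Gene lists showed where the members lay among functions. Lists of macrophage identity, LPS response and housekeeping genes held none: 0 of 24 macrophage identity genes, 0 of 38 genes of the LPS and interferon response and 0 of 18 housekeeping genes, against 6.5% of all genes. These genes are short, with median lengths of 11.5, 8.74 and 5.13 kb, and only 1.51% of all genes up to 10 kb and 4.15% of those from 10 to 30 kb held a member. Of 39 genes of the IL-4 response, 3 held 1 member bin each: Cd209a, a C-type lectin gene, Cdh1, which encodes E-cadherin, and Fn1, the fibronectin gene. Cbs and Vldlr were the 2 of 25 stress response and serine synthesis genes, and Cbx7, a Polycomb reader, was the 1 of 20 H3K27 methylation genes. Each of these 3 also held 1 bin. The lists were compiled with results of these data known, and their counts were not tested.

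Developmental transcription factor genes had more members per Mb than all genes, and also more bins called in all 10 libraries. The latter came to 523 kb per Mb of gene body in these genes, against 45.6 over all genes. All 79 developmental transcription factor genes had a bin called in all 10 libraries, and 11 (13.9%) held members, against 6.5% of all genes, with 19.2 member kb per Mb of gene body against 5.21 over all genes. Pax2, a kidney and eye regulator, held 6 kb: its cover was 81.6% in WT M0, 84.5% in KO M0, 98.3% in KO M1 replicate 1 and 100% in the other 7 stimulated libraries. Zic1, a neural regulator, held 2 kb and went from 67.9% and 65.0% in M0 to between 90.1% and 100%. Of 23 granulocyte, erythroid and dendritic markers 2 (8.70%) held members, at 48.8 kb per Mb. These were Zbtb46 (10 kb) and Flt3 (6 kb), both of dendritic cells. Of 23 lymphoid markers 5 (21.7%) held members, namely Ebf1, Pax5, Ncr1, Bcl11b and Cd3g, at 10.2 kb per Mb. Of 21 stromal, endothelial and epithelial markers 2 (9.52%) did, Cdh1 and Pdgfra, at 2.02 kb per Mb. Flt3 cover in M0 (40.3% and 50.4%) lay within the range after stimulation (25.1% to 74.9%), so the net cover of the gene did not separate although 6 of its bins did.

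Genes of excitable cells are long, and members lay in many of them, and their density was below that of all genes in the 3 lists compiled for them. Members lay in 10 of 36 ion channel genes (27.8%) at 4.59 kb per Mb, in 5 of 44 neurotransmitter receptor genes (11.4%) at 2.24 kb per Mb and in 7 of 53 neural adhesion and guidance genes (13.2%) at 0.575 kb per Mb, against 6.5% and 5.21 kb per Mb over all genes. Kcnj6, an inward rectifier gene, held 11 kb, Cacna1c, an L-type calcium channel gene, 10 kb, the Shaker-type channel gene Kcna2 7 kb and the sodium channel gene Scn8a 6 kb. Grik4, a kainate receptor gene, held 9 kb, Htr7, a serotonin receptor gene, 8 kb and Gabbr2, a GABA-B receptor gene, 5 kb. Drd1, a dopamine receptor gene, held 1 kb. Dlg2, a postsynaptic scaffold gene, held 10 kb in a body of 1973 kb, and Dscaml1, a cell adhesion gene, 5 kb. Body cover in M0 overlapped the range after stimulation at Kcnj6, Scn8a, Grik4, Gabbr2 and Dscaml1. At Gabbr2 it was 53.8% in WT M0 and 63.0% in KO M0, against 34.8% to 69.1% after stimulation. At Cacna1c, Kcna2, Htr7, Drd1 and Dlg2 the M0 cover lay below that range. The wider family of potassium channel genes, taken by symbol start, lay above all genes, with 18 of 92 at 7.59 kb per Mb. Its member length came to 81 kb, beside 29 kb in Kcnip1 alone, a gene already named for its member length. Among the other families the myosins (9 of 39 genes, 20.6 kb per Mb), keratins (4 of 112, 13.9) and dyneins (7 of 17, 13.5) had the highest densities, and the killer receptor and C-type lectin genes (1 of 62, 0.796), the ADAM proteases (3 of 59, 0.923) and the cadherins (5 of 101, 0.947) the lowest. Most of the 95 myosin kb came from Myo3b and Myo16, and most of the 48 dynein kb from Dnah14, genes already named for their member length. Olfactory receptor genes held members in 10 of 1104 cases.

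Of 919 miRNA hairpins on these chromosomes, 3 (0.326%) were centred in member bins, which make up 0.624% of autosomal bins. This was looked at after the data were seen. Their listed mature forms follow 5′ to 3′ from RefSeq, with the seed (bases 2 to 8) in capitals.
mmu-let-7k (hairpin chr5:147283189-147283298, minus strand): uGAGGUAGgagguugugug
mmu-miR-211-5p (hairpin chr7:64205806-64205911, plus strand): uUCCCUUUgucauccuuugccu
mmu-miR-211-3p (same hairpin): gCAAGGACagcaaaggggggc
mmu-miR-6404 (hairpin chr7:143933115-143933208, plus strand): gUGGGAAGugacaagggguag
The 4 seeds differ from each other, and let-7k carries the seed of the let-7 family. miR-211 is encoded within Trpm1, a melanocyte channel gene.

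Within the members the stimulated libraries could be set beside each other, since the rule treats all 8 alike. The mean cover of a member bin was 987 and 993 bp in the WT M1 replicates and 990 and 992 bp in KO M1. It was 978 and 994 bp in WT M2, and 984 and 955 bp in KO M2. The rule required at least 500 bp in each of these libraries and a bin holds no more than 1000 bp, so all values sit near the ceiling, and cover is given as a description. The mean was 990.3 ± 2.51 bp in M1, 977.6 ± 16.8 bp in M2, 980 ± 17.3 bp over KO and 988 ± 7.54 bp over WT (SD, n = 4 each), with overlapping libraries in both comparisons. The median width of the region holding a member was 23121 ± 2497 bp in M1 and 18110 ± 5949 bp in M2 (SD, n = 4), a difference of -5012 bp (two-sided exact permutation p = 0.2, adjusted over 4 tests 0.4). The M1 and M2 libraries overlapped in width. Without WT M2 replicate 2 the difference was -7518 bp with an exact permutation p of 0.0286, since the remaining M2 libraries were then all below the M1 libraries. That p is the lowest the test can reach with those libraries, and it was not adjusted. With any other stimulated library left out, the exact permutation p was 0.171 to 0.457.

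The width of the holding regions differed between KO and WT by -2197 bp, within the replicate spread (exact permutation within state, p = 0.611, adjusted 0.611). With 36 arrangements the genotype test cannot go below 0.0556. The lowest library in both measures was KO M2 replicate 2, and without it the KO minus WT difference in width was 19 bp.

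**Figure D5:**
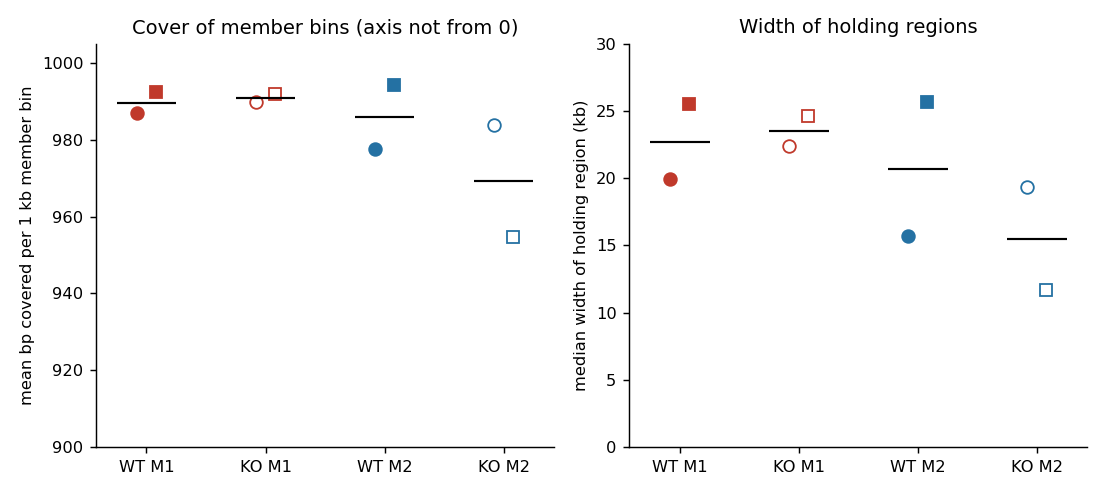
Mean bp covered per member bin (left, axis not from 0) and median width in kb of the region holding a member (right) in each stimulated library, with circles for replicate 1, squares for replicate 2, filled for WT, open for KO, and lines for the mean of 2 libraries. The M1 libraries sit between 987 and 993 bp, and the M2 libraries spread from 955 to 994 bp.

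Gene by gene, cover was compared between M1 and M2 in the 313 genes with at least 5 member kb, a comparison added after the data were seen. All 4 M1 libraries exceeded all 4 M2 libraries in 12 genes (3.83%), against 1.71% of the 8137 genes with cover, and the reverse held in 3 genes (0.958%), against 0.934%. Of the 8137 genes, 215 had an exact permutation p under 0.05, and after adjustment over all of them the smallest p was 0.903, so no gene passed. The count of 12 rose to 44 without WT M1 replicate 1 (5.10% of all genes), to 40 without WT M2 replicate 2 (3.79%) and to 20 without KO M1 replicate 1 (2.96%), with fewer libraries to separate. The reverse count of 3 rose to 20 without WT M2 replicate 1 (6.39%, against 12.8% of all genes) and to 9 without WT M1 replicate 1 (2.88%, against 2.74%). With both WT replicate 1 libraries left out, 50 of the 313 genes (16%) had M1 above M2, against 6.44% of all genes, and 28 (8.95%) the reverse, against 16.1%.

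Adra1a and Htr7, both receptors for amine transmitters, were among the 12. Adra1a (chromosome 14, 66635251 to 66771240) had 96.4% and 97.4% cover in WT M1, and 97.7% and 94.4% in KO M1. In M2 it had 84.6% and 81.5% in WT, and 74.0% and 58.4% in KO, with 22.1% in WT M0 and 22.3% in KO M0. All M2 values lay between those of M0 and M1. Htr7 (chromosome 19, 35958415 to 36058133) had 71.0% to 77.2% in M1 and 62.8%, 48.0%, 36.9% and 21.5% in M2, with 12.2% and 9.85% in M0. The M2 libraries of Htr7 spread more widely than those of M1, with an SD of 17.4 against 2.65 percentage points (n = 4 each).

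The other 10 genes of the 12, named after their values were seen except Gjc3, were Pcp4, Gucy1b2, Ptpro, Ccdc148, Rab30, Plxna2, Gjc3, Ptpn13, Aim2 and Tmc2. Pcp4, a calmodulin-binding gene of neurons, had the largest difference, 59.2 ± 17.9% in M1 and 22.6 ± 4.68% in M2 (SD, n = 4). Aim2, a cytosolic DNA sensor gene that macrophages can use, had 41.9% to 42.4% in M1 and 40.4%, 39.9%, 37.5% and 21.9% in M2, so 3 of the 4 M2 libraries were close to M1. KO exceeded WT without overlap in 0 of the 313 genes, against 1.89% of all genes with cover, and WT exceeded KO in 4 (1.28%), against 0.811%.

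The authors' deposited tables of KO against WT regions met few members. In M1, 6 of 93 KO-enriched regions and 0 of 49 WT-enriched regions touched a member bin, and in M2 these numbers were 3 of 1049 and 4 of 185. The authors' deposited tables give each of these 6 M1 regions a false discovery rate of 0.99985. They give the M2 regions that touched a member rates of 0.130 to 0.203. As a share of bins, the KO-enriched M2 regions of the authors' deposited table touched 0.0261% of members, 0.481% of bins called in all 10 libraries and 0.385% of all called bins. For the other 3 of the authors' deposited tables the shares of members were 0.0456% (M1 KO, against 0.0349% of called bins), 0% (M1 WT, against 0.018%) and 0.0326% (M2 WT, against 0.0686%). Among the M2 regions higher in KO, the authors' deposited table gives Lhfpl3 a log2 fold of 1.30 at a false discovery rate of 0.192, and Htra1, a serine protease gene, 1.40 at 0.197. Bins called in every stimulated library cannot be lost in 1 genotype, so nothing is read from the low shares.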

How the data were processed

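H3K27me3 ChIP-seq regions of 10 libraries were used. The submitters' processing notes name mm10 as the build and list DiffBind 2.0.2, HOMER 4.8, Bowtie2 2.4.2, deepTools 3.5.1 and SAMtools 1.10. The authors called regions in each library alone, without input, with HOMER findPeaks (1000 bp windows joined across up to 2500 bp, false discovery rate 0.001), per the file headers. Each list holds the authors' signal, a tag count normalised to 10 megatags, and the authors' score, per the file headers. Neither was tested. The authors' deposited tables of KO against WT give a log2 fold, a p-value and a false discovery rate for 401 bp regions, and were only described. The model behind them is not given in the sources used here.

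Overlapping regions were merged and called per 1 kb bin (scipy 1.17.1, pandas 2.3.3 and numpy 2.4.6 under Python 3.11.15). The total tags per library, in the report, set the precision of the calls. Genes and starts came from RefSeq tables of GRCm38.p6; exon, intron and bin sequence were not analysed here. Widths were compared between libraries by exact permutation, with Benjamini-Hochberg adjustment over 4 tests, of which the 2 on member cover are bounded by the rule and are not reported as tests. Alternatives changed the cover needed, the ranking of regions, the M0 cover allowed, the bin start and the libraries. The scripts were tested on simulated data.

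The members and gene lists were chosen with earlier results of these data known. Named are the 15 genes with the most member kb, the 10 with the largest share in members among those with at least 5 member kb, list genes with at least 5 kb or 20% in members, genes at the 6 longest runs and up to 6 genes starting in the longest runs. The 2 such starts at olfactory receptor genes are not printed.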

Additional observations from a re-analysis of the deposited data

Results flagged for a closer look

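In 104 groups of 4 libraries of 1 state, gene body cover or a member measure was screened for a single library far from the other 3, and 16 values stood out. Chance gives this in about 1 of 20 groups of unbounded values, but cover is bounded at 0% and 100%, and in 9 of the 16 the other 3 libraries were equal, so that any departure stands out. In M1, WT M1 replicate 1 stood apart at Cyp3a13 (94.8%), Zbtb46 (47.2%) and Kcna2 (92.4%), and WT M1 replicate 2 at Keg1 (99.1%). KO M1 replicate 1 stood apart at Kcna10 (83.2%), Pax2 (98.3%), Zfp660 (53.0%) and Olfr9 (0%), and KO M1 replicate 2 at Gjc3 (100%). In M2, KO M2 replicate 2 stood apart at Chrna5 (94.7%), Ncr1 (59.2%), Zic1 (90.1%), Defb42 (74.4%) and Olfr9 (14.3%), WT M2 replicate 1 at Dscaml1 (47.3%) and WT M2 replicate 2 at Wipf3 (94.9%).

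Among the 50 named genes, the genotypes moved in opposite directions in M1 and M2 at 2. Every replicate of KO was on one side of WT in M1 and on the other in M2. With 2 libraries on each side, replicates can separate in this way by chance. The share over all genes was not computed. At Cpeb1 the KO minus WT difference in body cover was 4.34 percentage points in M1 and -14.2 in M2. At Keg1 it was 0.529 in M1 and -27.5 in M2. The M1 values of Keg1 lay at the ceiling, 99.8% and 99.1% in WT and 100% in both KO libraries. The difference between the states was not tested at either gene.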

How the results depend on the processing

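The number of member bins moved most with the ranking of regions: 432 with the upper 50% of stimulated regions by score, 1049 after shortening to the WT M0 length by score, and 8079 and 6398 with both steps by tags per kb. It was 10021 with no M0 cover allowed, and 15579 to 22882 with 1 library left out. The share in gene bodies was 36.8% (shortened by score), 34.7% and 35.6% (upper 50% and shortened, by tags per kb) and 32.9% (no M0 cover), and 33.4% to 34.9% with 1 library left out. The median distance to M0 regions was 58 bp and 536 bp with 750 and 250 bp of cover needed, 190.5 and 221 bp by score, 130 and 112 bp by tags per kb, 787 bp with no M0 cover, and 282.5 to 466 bp with 1 library left out, the latter without KO M0 (452 bp without KO M2 replicate 2).

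With 1 library left out, the M2 minus M1 difference ran from -18.8 to -8.65 bp in cover and from -7518 to -3225 bp in width, and the KO minus WT difference from -12.0 to -0.940 bp and from -3782 to 19 bp. The cause of these shifts was not tested. Cover is bounded by the rule, so its p-values are no test of a difference. Under the replicate block the exact permutation p was 0.25 for M2 minus M1 (-12.7 bp in cover and -5012 bp in width) and 0.875 for KO minus WT (-7.74 and -2197 bp). Over autosomal bins the deviations of same-numbered libraries correlated at -0.0688 to 0.120 over the 6 pairs of groups, so the numbers were not taken to pair the libraries, although WT replicate 1 of M1 and of M2 share calls on the X chromosome. No other alternative changed a direction or a call. The M0 libraries have no replicate within a genotype, and the depth of the 10 libraries, 12.6 to 20.9 megatags, limits what a called edge can show.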

Other observations

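A minority of member bins lay far from any M0 region: 409 bins in 269 runs were more than 10 kb away, and the farthest was 986772 bp away. Of these, 85 (20.8%) lay in gene bodies, of 51 genes, against 33.8% of all members. Abcb11, the bile salt export pump gene (chromosome 2, 69238282 to 69342616), held 8 kb of them, Syt16, a synaptotagmin gene, held 5 kb and Shisa9, an AMPA receptor regulator gene, held 4 kb. These genes were named after their values were seen. The longest such run, 8 kb at chromosome 12, 15931001 to 15939000, lay 13283 bp from the nearest M0 region. The region holding a median bin of this kind was 6866 to 11110 bp wide in the 4 M1 libraries, 7447 and 7502 bp in WT M2, and 4064 and 2585 bp in KO M2, against 11685 to 25703 bp over all members in the 8 stimulated libraries.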
